A study of Caenorhabditis elegans with 2 samples.

Results

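The regions described here are places in the Caenorhabditis elegans genome where the ChIP-seq signal of eGFP-tagged NHR-28 was among the highest in each of 2 replicates, yet which did not enter the authors' thresholded peak list. They were chosen from the list of candidate regions made from both replicates. A region was taken when it overlapped, by at least 1 bp, a region among the 3000 highest by signal value in the list of replicate 1 and another among the 3000 highest in the list of replicate 2, and overlapped no thresholded peak. This gave 395 of 29975 nuclear candidate regions (1.32%), out of 30000 in the whole list. The choice rests on the signal, so signal values and ranks are given as a description of what was chosen. They are called the shared subthreshold regions in what follows.

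Whole L1 larvae, the earliest larval stage, were used, of both sexes pooled, from strain OP317 with the genotype unc-119(ed3) III; wgIs317. The array wgIs317 carries eGFP-tagged nhr-28, and the labels list no change of the endogenous nhr-28 gene. The antibody is labelled nhr-28, and whether it was raised against eGFP or the receptor is not stated, so signal from endogenous NHR-28 cannot be told apart from that of the tagged protein. Both biological replicates form 1 group with no second condition, so no contrast between conditions exists. Because whole animals were used, the cell types that contribute to a signal are not resolved.

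NHR-28 is a nuclear hormone receptor, a member of the class of transcription factors that bind DNA through paired zinc fingers and carry a domain that in many receptors holds a small lipophilic ligand. The family is greatly expanded in nematodes, and most of its worm members are related to the vertebrate receptor HNF4. Receptors of this family act in metabolism, molting and responses to diet, and many bind variants of the sequence AGGTCA.

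Sequences of 200 bases centred on the summit are shown for 6 of the highest-signal regions, because they show the difference between regions with and without GA repeats. Since they were picked for this, they do not stand for the shares in the set. Over all 395 regions, 25.1% of such windows held GAGAGA and 6.84% held CACGTG. The sequences come from the RefSeq genome WBcel235, the assembly also called ce11, and are given 5′ to 3′ on the plus strand. Capitals mark GAGAGA, its reverse complement TCTCTC, and the palindrome CACGTG. Each is named for the protein-coding gene whose start is nearest.
Y43F8B.2, chrV:19529293-19529492: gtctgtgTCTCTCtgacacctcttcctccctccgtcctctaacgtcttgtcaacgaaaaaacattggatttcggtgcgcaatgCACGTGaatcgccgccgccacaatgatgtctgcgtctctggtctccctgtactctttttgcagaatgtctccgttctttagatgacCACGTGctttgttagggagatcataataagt
emb-8, chrIII:5202686-5202885: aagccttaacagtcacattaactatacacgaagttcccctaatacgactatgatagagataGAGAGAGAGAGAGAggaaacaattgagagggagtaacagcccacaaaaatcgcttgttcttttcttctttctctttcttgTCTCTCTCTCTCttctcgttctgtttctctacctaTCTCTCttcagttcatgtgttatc
sma-9, chrX:10766190-10766389: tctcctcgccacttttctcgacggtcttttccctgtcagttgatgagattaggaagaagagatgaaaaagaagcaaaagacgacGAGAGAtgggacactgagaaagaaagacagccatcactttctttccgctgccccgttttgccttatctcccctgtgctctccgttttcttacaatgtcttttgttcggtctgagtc
bcat-1, chrX:12872394-12872593: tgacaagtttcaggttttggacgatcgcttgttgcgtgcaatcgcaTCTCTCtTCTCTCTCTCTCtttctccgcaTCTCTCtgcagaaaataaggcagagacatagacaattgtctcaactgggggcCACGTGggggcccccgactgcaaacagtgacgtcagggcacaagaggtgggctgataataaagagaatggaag
rpn-3, chrIII:8447071-8447270: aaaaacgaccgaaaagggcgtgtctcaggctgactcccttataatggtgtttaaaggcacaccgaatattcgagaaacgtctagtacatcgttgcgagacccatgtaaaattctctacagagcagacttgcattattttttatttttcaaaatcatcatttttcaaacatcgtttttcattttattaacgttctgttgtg
nhr-10, chrIII:7116545-7116744: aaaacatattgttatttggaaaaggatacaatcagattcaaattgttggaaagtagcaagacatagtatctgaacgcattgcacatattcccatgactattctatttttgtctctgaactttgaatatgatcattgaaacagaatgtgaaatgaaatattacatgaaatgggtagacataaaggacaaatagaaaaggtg
The first 4 windows hold GA or TC repeats, and those nearest to Y43F8B.2 and bcat-1 also hold CACGTG. The windows nearest to rpn-3 and nhr-10 hold neither.

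Windows of 3 regions that lie within 500 bp upstream of genes for other nuclear hormone receptors are shown for their place at genes of NHR-28's own family.
nhr-142, chrV:5790665-5790864: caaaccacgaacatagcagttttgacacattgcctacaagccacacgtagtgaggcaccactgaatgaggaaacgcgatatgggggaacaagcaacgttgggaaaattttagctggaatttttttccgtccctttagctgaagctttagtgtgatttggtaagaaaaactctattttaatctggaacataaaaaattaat
nhr-117, chrV:1621636-1621835: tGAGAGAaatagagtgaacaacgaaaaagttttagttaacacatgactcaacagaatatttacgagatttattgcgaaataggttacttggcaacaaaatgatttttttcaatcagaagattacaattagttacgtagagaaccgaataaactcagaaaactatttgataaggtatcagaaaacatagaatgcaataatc
nhr-3, chrX:14557966-14558165: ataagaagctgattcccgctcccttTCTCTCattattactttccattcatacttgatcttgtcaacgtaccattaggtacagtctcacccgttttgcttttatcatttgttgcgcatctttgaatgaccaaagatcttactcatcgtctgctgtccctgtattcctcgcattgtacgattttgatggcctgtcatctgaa
GAGAGA lies at the edge of the nhr-117 window, its reverse complement lies in the first part of the nhr-3 window, and the nhr-142 window holds none.

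The 395 regions covered 341 distinct places after overlapping regions were merged, with 54 places holding 2 regions and 287 holding 1. In a place with 2 regions, both can overlap the same replicate region: the regions nearest to icd-1 and vps-32.1 on chromosome II both overlapped the replicate 2 region of rank 57. The signal in the list from both replicates ran from 12.7 to 48.8, with a median of 35.9, and the lowest thresholded peak stood at 48.9. Rank 1 is the highest signal of a list. The authors' -log10 q value of these regions ran from 0.0699 to 2.16, with a median of 0.886. In replicate 1 the ranks ran from 117 to 2999, with a median of 1165, and in replicate 2 from 57 to 3000, with a median of 1244.

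Few regions ranked high in both replicates, and the rule had left out those overlapping thresholded peaks, so these counts only describe the choice. Both ranks were 1000 or better in 78 regions and 500 or better in 16. Rank 159, the length of the thresholded list, was reached in replicate 1 by 11 regions and in replicate 2 by 19, and by 0 regions in both. The lower of the region's ranks lay between 2001 and 3000 in 163 regions. In the list from both replicates, 255 regions ranked 1000 or better, while 82 ranked below 3000. For 283 regions both replicate summits lay within 165 bp of the region's own summit, and their median signal was 38.2. The remaining ones, where a replicate region was shifted to one side, had a median signal of 22.3.

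**Figure D1:**
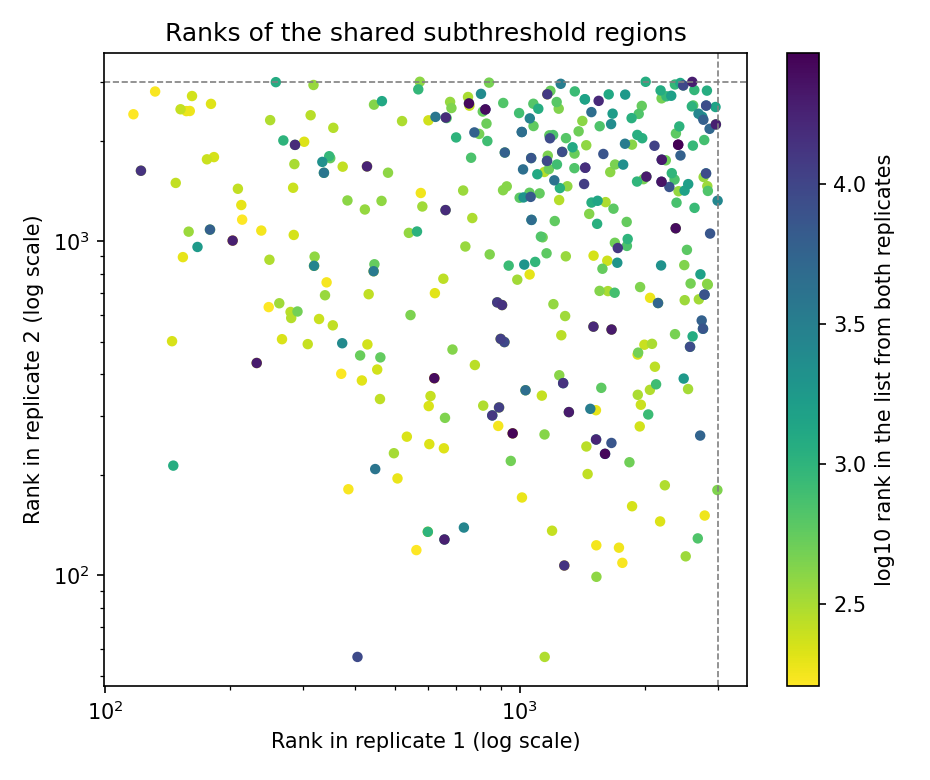
Rank of each shared subthreshold region in replicate 1 (x axis, log scale) and replicate 2 (y axis, log scale), 1 point per region, coloured by the log10 of its rank in the list from both replicates. The dashed lines stand at rank 3000, and no point has a rank of 159 or better in both replicates.

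Of 29819 nuclear candidates outside the thresholded list, 2943 (9.87%) overlapped the 3000 highest regions of replicate 1 and 2750 (9.22%) those of replicate 2. Among the 2943, 13.4% (exact 95% interval 12.2 to 14.7) also overlapped those of replicate 2. Among the 2750, 14.4% (13.1 to 15.7) also overlapped those of replicate 1. These shares define the set and nothing is read from them. Between the replicate lists themselves, overlap decreased down the ranks. Of replicate 1's nuclear regions at ranks 1 to 159, 72.7% overlapped one of replicate 2's 3000 highest. At ranks 160 to 500 the share was 28.2%, at ranks 1001 to 2000 it was 12.6%, and at ranks 2001 to 3000 it was 7.9%, beside 5.67% over the whole list.

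**Figure D2:**
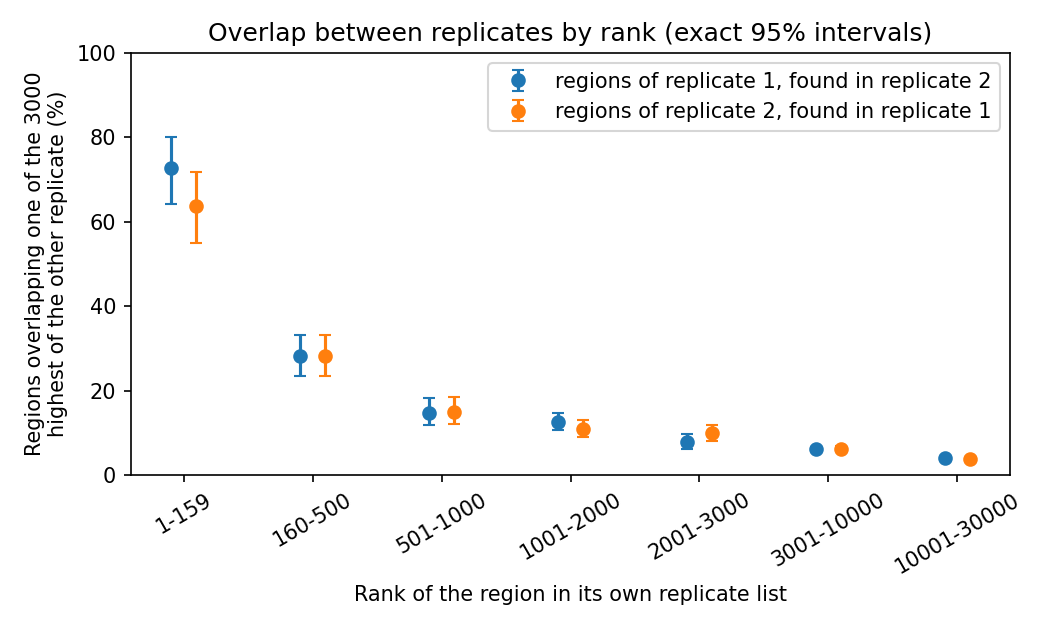
Percentage of nuclear regions of one replicate's list (y axis) that overlap one of the 3000 highest regions of the other replicate, by rank in their own list (x axis), with exact 95% intervals. The share is 72.7% and 63.7% at ranks 1 to 159 and 3.98% and 3.85% at ranks 10001 to 30000 for replicates 1 and 2.

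At the limit, the region nearest to hda-10, which encodes a histone deacetylase, ranked 574 and 3000 in replicates 1 and 2. The region nearest to fip-7 ranked 2011 and 2999, and that at kel-3, a gene for a kelch-repeat protein, ranked 2999 and 1322. Just outside lay a region nearest to C50A2.3 with ranks 3004 and 1723, one at ZK666.15 with ranks 502 and 3007, and one nearest to Y92H12BM.1 with ranks 3010 and 2279. The signal at rank 3000 was 17.2 in replicate 1 and 14.3 in replicate 2, and values on both sides of it were nearly the same.

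The highest-signal regions were split between gene starts, introns and places some kb upstream. The highest lay in an intron of Y43F8B.2 (chrV:19529228-19529557), 3717 bp inside the gene, with a signal of 23.5 in replicate 1, 26.8 in replicate 2 and 48.8 in the list from both. The region 182 bp upstream of rpn-3 (chrIII:8447006-8447335), a subunit of the proteasome's regulatory particle, had a signal of 28.3 in replicate 1 (rank 214) and 17.3 in replicate 2 (rank 1160). The region 3109 bp upstream of emb-8 (chrIII:5202621-5202950), the reductase that passes electrons to cytochromes P450, had 33.5 in replicate 1 (rank 117) and 14.96 in replicate 2 (rank 2398). Of these 3, the emb-8 region had the widest spread between replicates.

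Next came the regions 92 bp upstream of F25D1.5, with ranks 248 and 635 in replicates 1 and 2, and 173 bp upstream of ekl-4, with ranks 371 and 401. The region 2992 bp upstream of sma-9, a zinc-finger factor of the body-size TGF-beta pathway, ranked 1280 and 107. The region 1207 bp upstream of nhr-10, a receptor that acts in the propionate shunt, ranked 1767 and 109. Both of these ranked far better in replicate 2. The region 237 bp upstream of dnj-29, a J-domain chaperone of the endoplasmic reticulum, had the opposite order, with ranks 132 and 2805. The others among the 15 highest lay nearest to F32G8.3, trmt-10C.2, the chemoreceptor gene sri-5, F54C4.4, the branched-chain aminotransferase gene bcat-1, the dehydrogenase gene dhs-8 and tif-1A, whose product acts in RNA polymerase I initiation. Of the 15, 7 were assigned to a gene start within 1 kb.

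A different set led when regions were ordered by the lower of their replicate ranks, which asks for high signal in both. The first was in an intron of K11D2.4, with ranks 146 and 213 in replicates 1 and 2, but a signal of 31.1 and rank 1180 in the list from both. It was followed by the region in F32G8.2, nearest to the start of F32G8.3, with ranks 386 and 181, and by the ekl-4 region. The vps-32.1 region, at a gene of the ESCRT-III membrane-scission complex, ranked 406 and 57. The region in an intron of zip-1, which encodes a bZIP transcription factor, ranked 416 and 383. Those in ppfr-1, a regulatory subunit of protein phosphatase 4, and at M02B7.2, W03F8.4 and the chemoreceptor gene sra-14 made up the rest of the first 10. The widest gaps between replicates were at pole-2, a DNA polymerase epsilon subunit, with ranks 2995 and 180, at ubql-1, which encodes ubiquilin, with ranks 258 and 2992, and at dnj-29.

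The regions lay near gene starts more often than most candidates did. The summit was within 1 kb of a protein-coding gene start in 190 of 395 (48.1%, exact 95% interval 43.1 to 53.2). Among the 156 candidates that overlap thresholded peaks the share was 55.8% (47.6 to 63.7), among the 4903 that reached the 3000 highest in 1 replicate only it was 38.3% (36.9 to 39.7), and among all 29424 other candidates it was 35.5% (34.99 to 36.1). Intervals cover counting error over regions only, and neighbouring regions are not independent. The difference lay upstream: 29.4% (24.9 to 34.1) had the summit 0 to 500 bp upstream of the nearest start, beside 39.1% (31.4 to 47.2) of thresholded and 12.4% (12.01 to 12.8) of other candidates. Downstream within 1 kb the share was 11.4%, beside 15.1% of other candidates. Summits lying upstream of 2 starts on opposite strands made up 8.86% (35 regions), beside 10.9% of thresholded and 2.34% of other candidates.

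**Figure D3:**
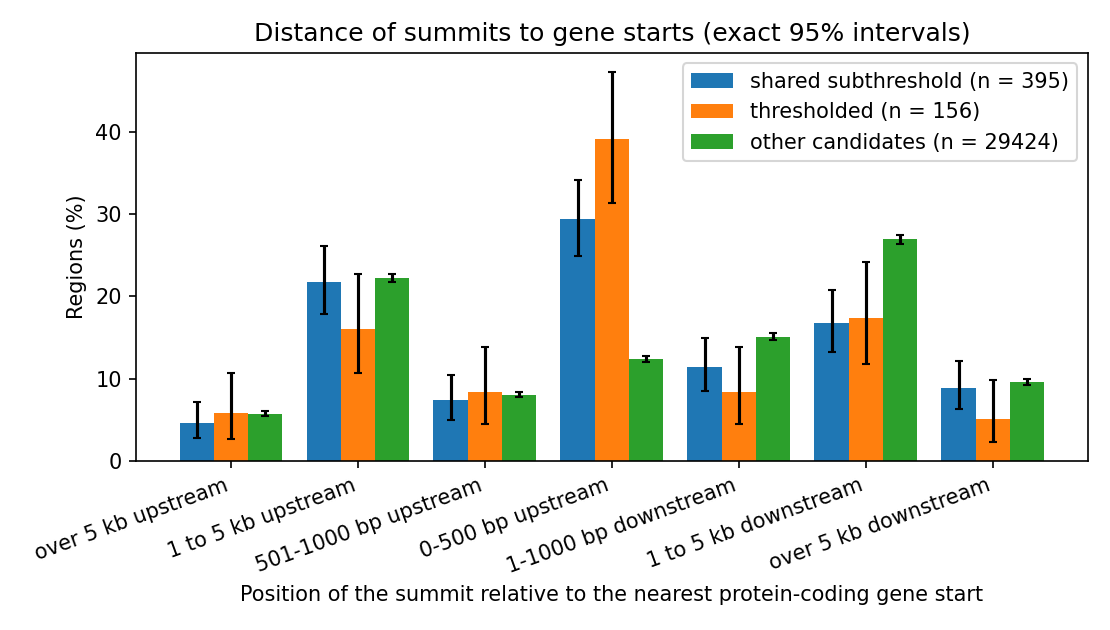
Percentage of regions (y axis) by position of the summit relative to the nearest protein-coding gene start (x axis) for shared subthreshold regions (n = 395), thresholded regions (n = 156) and other candidates (n = 29424), with exact 95% intervals. The bar for 0 to 500 bp upstream stands at 29.4%, 39.1% and 12.4% in that order.

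The sets also differ in rank, so regions of like rank in the list from both replicates were also compared. At ranks 160 to 500, 50.3% (42.7 to 57.8) of 179 shared regions were within 1 kb of a start. The share was 61.3% (53.1 to 69.0) among 155 regions that reached the 3000 highest of 1 replicate only. Such regions are called single-replicate regions in what follows, though they can also stand below rank 3000 in the other replicate's list. At ranks 501 to 1000 the shares were 47.4% and 43.3%, and at ranks 1001 to 3000 they were 39.7% and 39.5%. Below rank 3000 they were 50% (38.7 to 61.3) of 82 and 36.1% (34.4 to 37.8) of 3176. Some of those 82 overlap a shared region of better rank, such as the ones at rps-28 and dpy-21. The same gene start can thus be counted in more than 1 class of rank. Among regions of like rank down to 3000, the intervals of shared and single-replicate regions overlapped.

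By annotation, 232 summits (58.7%, 53.7 to 63.6) were intergenic, 117 (29.6%) were in introns, 23 in 3′ UTRs, 14 in coding exons and 9 in 5′ UTRs. Only protein-coding genes were used for these classes, so an intergenic summit can lie in a noncoding gene or a pseudogene. The intergenic share was 74.4% (66.8 to 81.0) among thresholded and 45.5% (44.97 to 46.1) among other candidates, and that of coding exons was 3.54%, 1.92% and 9.02% in the same order. By chromosome, IV held 95 regions (24.1%, 19.9 to 28.6), beside 9.62% (5.48 to 15.4) of thresholded and 20.9% of other candidates. Chromosome X held 65 (16.5%, 12.9 to 20.5), beside 24.4% (17.9 to 31.9) of thresholded and 18.2% of other candidates. Its share was 6.41% among the 78 regions left when only the 1000 highest of each replicate were used. Chromosomes I, II, III and V held 15.2%, 10.4%, 14.7% and 19.2% of the regions, beside 15.6%, 12.4%, 14.6% and 18.4% of other candidates.

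The median distance from a summit to the nearest thresholded summit was 269 kb, beside 258 kb for other candidates, and 3 regions (0.759%) lay within 1 kb and 17 (4.30%) within 10 kb, beside 0.173% and 2.98% of other candidates. Among themselves, 39 of the 341 places had another within 10 kb, in 19 clusters. The same count was not made for other candidates, so it does not show whether these places lie closer together than others. The largest cluster held 3 places upstream of Y17D7C.2 on chromosome V, 759, 1854 and 4193 bp from its start. The summits at 759 and 1854 bp lay within a pseudogene. Other clusters included a pair nearest to adh-1, an alcohol dehydrogenase gene, a pair nearest to saeg-1, and a pair in the neighbourhood of nhr-286 and nhr-135. These clusters were named after their values were seen.

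The regions within 1 kb of a start were assigned to 167 protein-coding genes, and the thresholded candidates to 76. The lists shared 0 genes, 0% of each, so that together they held 243 of the 8257 genes with a candidate region within 1 kb. Regions that overlap thresholded peaks were left out by the rule, and these lists are small, so nothing is read from the lack of shared genes. With every start within 1 kb counted instead of the nearest, the numbers were 216 and 100, again with 0 shared. The 8014 other genes with a candidate region within 1 kb served as the background for gene lists. Shares of gene lists, noncoding genes and CACGTG were not compared among regions of like rank. The part of rank in them was not tested. Of 31 lists, 12 held 0 of the 167 genes and 11 held at least 2.

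Transcription factors were led by NHR-28's own family. Genes for nuclear hormone receptors numbered 9 of 167 (5.39%, exact 95% interval 2.49 to 9.98), beside 3 of 76 thresholded genes (3.95%) and 1.62% (low end of the interval 1.36) of the other genes. The highest lay 212 bp upstream of nhr-142 (chrV:5790600-5790929), with a signal of 31.5 in replicate 1 (rank 145), 20.2 in replicate 2 (rank 502) and 44.7 in the list from both. The region 56 bp upstream of nhr-47 had a signal of 19.3 in replicate 1 and 18.2 in replicate 2, and that 216 bp upstream of nhr-117 had 22.2 and 14.8. The other 6 were nhr-3, nhr-182, nhr-50, nhr-1, nhr-58 and nhr-57. Of the 9, 7 lie on chromosome V and 2 on X. How the other receptor genes with a candidate region divide between chromosomes was not counted, so nothing is read from this. Further receptor genes were nearest at more than 1 kb, among them nhr-10 and nhr-11, the second in an intron 1011 bp from the start.

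Other factor genes numbered 4 in the list of bZIP, bHLH, forkhead, GATA, SOX and other stress factors (2.40%, 0.656 to 6.02). This stood beside 1.32% of thresholded and 1.06% of other genes, and both lie inside the interval. The 4 genes were dmd-6, which encodes a DM-domain factor, atf-4, which encodes the bZIP factor of the integrated stress response, elt-7, a GATA factor of the intestine, and hlh-11. The atf-4 region lay 194 bp upstream, with a signal of 27.4 in replicate 1 and 15.1 in replicate 2. The elt-7 region lay in an intron 238 bp from the start, with 21.6 and 19.2. Beyond 1 kb, and named after their values were seen, regions lay 3082 bp upstream of fos-1, 1848 bp upstream of hif-1, the hypoxia-inducible factor gene, and in an intron of daf-5, a partner in dauer TGF-beta signalling. Homeobox genes numbered 0 (exact upper limit 2.18%), beside 0.562% of other genes.

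Genes of protein synthesis and folding formed the next group. Heat shock proteins and chaperones numbered 6 (3.59%, 1.33 to 7.66), beside 3.95% of thresholded genes and 0.399% of the other genes. They were dnj-29, pdi-6, a protein disulfide isomerase, crt-1, the calcium-binding chaperone calreticulin, the prefoldin subunit pfd-3, unc-23 and the small heat shock gene hsp-12.3. The hsp-12.3 region, with a signal of 15.8 in the list from both, had its summit 706 bp downstream of the start. It overlaps a region of signal 33.9 nearest to F38E11.9, and both have the same replicate ranks. Both also lie within 200 bp of the snRNA gene F38E11.11, so the place can belong to either gene. The pdi-6 region, 12 bp upstream, had a signal of 26.7 in replicate 1 (rank 285) and 17.6 in replicate 2 (rank 1044), and the crt-1 region, 245 bp upstream, had 30.5 (rank 162) and 14.6 (rank 2719). The regions at dnj-29, pdi-6 and crt-1 ranked better in replicate 1, and those at pfd-3, unc-23 and hsp-12.3 better in replicate 2.

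Translation factors numbered 5 (2.99%, 0.979 to 6.85), beside 3.95% of thresholded and 0.237% of other genes. They were inf-1, the helicase eIF4A, with its region 278 bp upstream (signal 18.6 in replicate 1 and 20.3 in replicate 2), eif-3.J, the cap-binding protein gene ife-4, iff-2 and eif-3.I. The eif-3.J summit lay 890 bp upstream in the 3′ UTR of a neighbouring gene. The thresholded candidates held other subunits of the same initiation factor, eif-3.B and eif-3.C. Ribosomal protein genes numbered 2 of 167 (1.20%, 0.145 to 4.26), rpl-29 and rps-28, beside 7 of 76 (9.21%, low end 3.78) and 0.324% of other genes. With every start within 1 kb counted, 7 of 216 genes near the shared subthreshold regions were ribosomal protein genes. Ribosomal protein genes were not counted in this way for the other sets, so the shares above are no measure for it.

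Smaller lists gave 2 or 3 genes each. Chemoreceptor genes, a large family expressed mostly in sensory neurons, numbered 3 (1.80%, 0.372 to 5.16), sri-5, sra-14 and sru-18, beside 6.53% of other genes. Detoxification genes numbered 3 (1.80%, 0.372 to 5.16), beside 6.58% of thresholded and 1.65% of other genes. The share was close to that of other genes. The genes were cyp-33E3, ugt-14 and the superoxide dismutase gene sod-4. The cyp-33E3 region had a signal of 18.3 in replicate 1 (rank 2179) and 25.7 in replicate 2 (rank 145). Lists with 2 genes (1.20% each, 0.145 to 4.26) were splicing (mog-1 and sap-140), histones (the linker histone gene hil-1 and his-68), chromatin regulators (lin-9, a DREAM complex component, and the bromodomain gene bet-2) and lipid metabolism (cpt-2, a carnitine palmitoyltransferase, and acbp-6). The shares of other genes in these lists were 0.786%, 0.125%, 0.661% and 1.17% in that order, and apart from histones they lie inside the interval. Lists for cuticle collagens and innate immunity numbered 0 of 167 (exact upper limit 2.18%), beside 1.39% and 1.73% of other genes. Those for central carbon metabolism, the respiratory chain, the V-ATPase and lysosome, and stress and insulin signalling also numbered 0, beside 0.449%, 0.437%, 0.487% and 0.287% of other genes. Thresholded genes numbered 3 of 76 (3.95%, 0.822 to 11.1) in the respiratory chain list and 3 in the stress and insulin list. Marker lists of hypodermis, neurons and body wall muscle numbered 0 as well, beside 0.125% each. Those of intestine (elt-7), pharynx (pqn-51) and germline (puf-9) numbered 1 each (0.599%, 0.0152 to 3.29), beside 0.187%, 0.424% and 0.175% of other genes. For the lists with 0 of the 167 genes, the shares of other genes all lie below the upper limit of 2.18%.

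**Figure D4:**
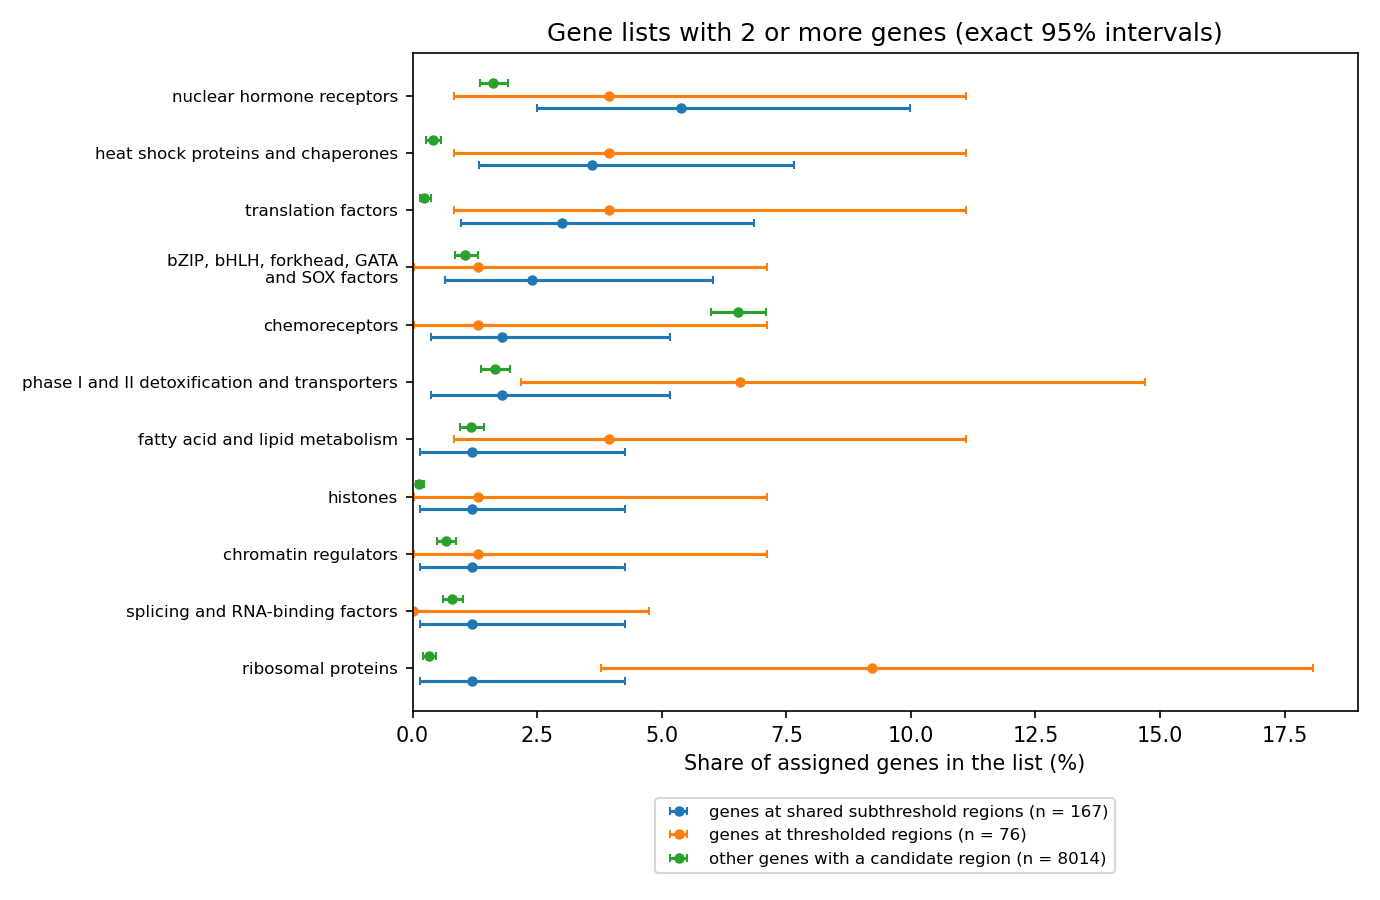
Percentage of assigned genes that belong to each gene list (x axis) for the 11 lists with at least 2 genes, in shared subthreshold regions (n = 167 genes), thresholded regions (n = 76) and other genes with a candidate region (n = 8014), with exact 95% intervals. Nuclear hormone receptors stand at 5.39%, 3.95% and 1.62%, and ribosomal proteins at 1.20%, 9.21% and 0.324%.

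Noncoding genes lay within 200 bp of the summit of some regions. Genes annotated as ncRNA were near 39 regions (9.87%, low end 7.12), beside 14.7% of thresholded and 3.07% of other candidates, and those at the highest signals were C30C11.14 at rpn-3, T14G8.5 near bcat-1 and K10H10.11 near dhs-8. Genes for snRNA, which include the spliced leader RNAs that are joined to the 5′ ends of worm mRNAs, were near 5 regions (1.27%, low end 0.412), beside 3.21% of thresholded and 0.0544% of other candidates. They were R07E5.16, sls-2.8, one of the SL2 spliced leader genes, sup-6, and F38E11.11, which 2 overlapping regions share. The sls-2.8 region (chrIII:12250331-12250660) had ranks 1196 and 136, and the R07E5.16 region (chrIII:10989446-10989775) had ranks 429 and 491. Together with 1 region near a tRNA gene this made 6 regions. The number was 3 when only regions with both replicate summits within 165 bp were counted.

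Genes for snoRNA were near 5 regions (1.27%), beside 0% (exact upper limit 2.34%) of thresholded and 0.279% of other candidates, with C36E8.11 near tif-1A and C54G4.16 at the highest signals. Genes for piRNA were near 30 regions (7.59%), beside 0.641% of thresholded and 7.04% of other candidates, a share close to the background. Long intergenic RNA genes were near 4 regions (1.01%), beside 1.92% of thresholded and 0.415% of other candidates, and linc-128 had the highest signal. Genes for miRNA were near 0 regions, beside 0.133% of other candidates. Among ncRNA genes of known function, and named after their values were seen, were tts-1, a long noncoding RNA found with ribosomes, at ranks 1925 and 347, and rncs-1, an RNA that inhibits Dicer, at ranks 569 and 2847. Noncoding genes often lay beside coding genes here, so a region can belong to either.

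The sequence under the summits was scanned for 22 motifs, with either strand counted, over 200 bp centred on each summit. The repeat GAGAGA was in 99 windows (25.1%, exact 95% interval 20.9 to 29.6), beside 37.8% (30.2 to 45.9) of thresholded, 11.3% (10.5 to 12.3) of single-replicate and 9.16% (8.84 to 9.50) of all other candidates, and 16.3% of windows of 200 bp before all protein-coding gene starts. In Drosophila such repeats are bound by the GAGA factor. Runs of at least 10 bp of the repeat were in 17 windows (4.30%), beside 4.49% of thresholded and 0.833% of other candidates. The emb-8 window printed above holds more than 1 such run. The share with GAGAGA was 26.9% among the 145 regions within 1 kb upstream of a start and 26.8% among the 205 beyond 1 kb, and 11.1% (3.71 to 24.1) among the 45 within 1 kb downstream. In the same order, the shares were 11.6%, 8.75% and 7.65% of other candidates, and 35.1%, 44.9% and 15.4% of thresholded ones.

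GC content was higher too. The median of the windows was 31.5%, beside 39.8% in thresholded and 30% in other candidates, and 26.3% of the regions had at least 40% GC, beside 9.78% of other candidates. Within GC classes, GAGAGA was in 52.9% (42.8 to 62.8) of shared regions with at least 40% GC, beside 26.1% (24.5 to 27.7) of other candidates. Between 35% and 40% GC the shares were 32.7% and 13.1%, between 30% and 35% they were 20% and 9.13%, and below 30% they were 7.23% (3.79 to 12.3) and 4.75%. The share was the larger one in each GC class, and its interval lay above that of other candidates in the 3 classes from 30% up. Beside single-replicate regions the intervals overlapped in every GC class. With at least 40% GC, 41.4% (36.8 to 46.2) of those held the repeat. By rank in the list from both replicates, GAGAGA was in 34.1% (27.2 to 41.5) of shared regions at ranks 160 to 500, beside 19.4% (13.5 to 26.5) of single-replicate regions, whose median GC of 31% was lower than the 35% of the shared ones. At ranks 501 to 1000 the shares were 23.7% (14.7 to 34.8) and 13.99% (10.7 to 17.9), and at ranks 1001 to 3000 they were 20.7% (11.2 to 33.4) and 11.5% (9.71 to 13.4). Below rank 3000 they were 9.76% and 10.6%. The intervals overlapped in these 3 classes of rank and not at ranks 160 to 500. The part of GC content in these shares beyond the classes given was not tested.

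**Figure D5:**
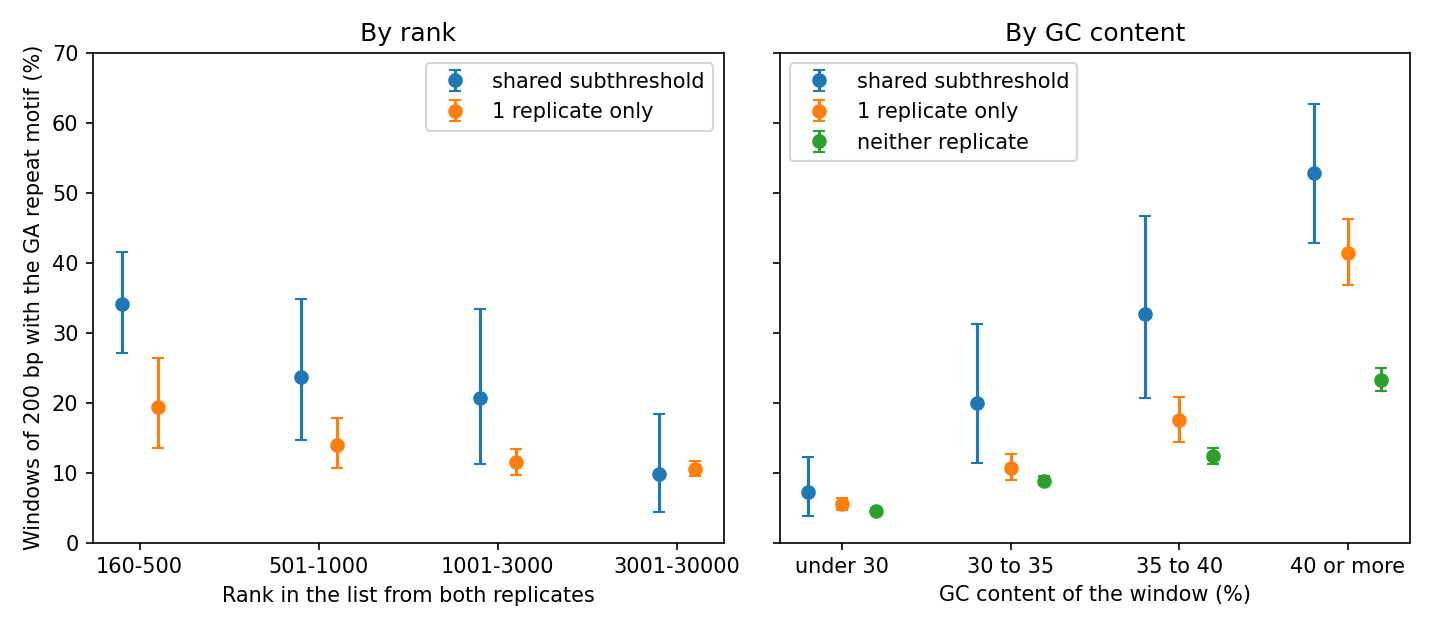
Percentage of 200 bp windows with GAGAGA on either strand (y axis) by rank in the list from both replicates (left) and by GC content in percent (right), with exact 95% intervals. Points are shared subthreshold regions, regions among the 3000 highest of 1 replicate only and, on the right, regions among the 3000 highest of neither. Shared regions at ranks 160 to 500 stand at 34.1% and those below rank 3000 at 9.76%.

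The palindrome CACGTG, the E-box core that many basic helix-loop-helix factors bind, was in 27 windows (6.84%, 4.55 to 9.79), beside 6.41% (3.12 to 11.5) of thresholded and 2.30% (2.14 to 2.48) of other candidates, and 4.22% of windows before all gene starts. Of the 27, 18 had at least 40% GC, where the share was 17.3% (10.6 to 26.0) beside 7.43% (6.50 to 8.45) of other candidates, and 0 of the 166 windows below 30% GC held it (exact upper limit 2.20%). With at least 40% GC, single-replicate regions stood at 8.01% (5.64 to 10.96), and that interval overlapped. Between 35% and 40% GC the shares were 10.9% (4.11 to 22.2) and 3.92% (3.35 to 4.55) of other candidates. Between 30% and 35% they were 4.29% (0.893 to 12.02) and 2.29% (1.96 to 2.64). The intervals overlapped in these classes. GAGAGA and CACGTG were together in 11 windows, including that of the Y43F8B.2 region and that of the bcat-1 region. The nuclear receptor core AGGTCA was in 15 windows (3.80%, 2.14 to 6.19), beside 3.95% of other candidates, 7.05% (3.57 to 12.3) of thresholded ones and 5.93% of windows before all gene starts. That share was close to that of other candidates. Its variant AAGTCA was in 7.09% (4.76 to 10.1), beside 8.51% of other candidates, 4.49% of thresholded ones and 8.99% of windows before all gene starts. CGCGCG was in 12 windows (3.04%, 1.58 to 5.25), beside 0.761% of other candidates, 3.21% of thresholded ones and 2.24% of windows before all gene starts, and the splice acceptor sequence TTTTCAG was in 15.2%, beside 22.6%, 13.5% and 21.9% in the same order. The repeat CACACA was in 13.2% (9.99 to 16.9), beside 8.01%, 21.8% and 10.9%. GGGCGG was in 5.32% (3.32 to 8.01), beside 2.56%, 6.41% and 5.97%. The heat shock element GAANNTTC was in 10.1% (7.33 to 13.5), beside 14.5%, 14.1% and 12.6%. The remaining motifs scanned are not described here.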

How the data were processed

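ChIP-seq of eGFP-NHR-28 in L1 larvae was measured in 2 biological replicates of 1 group. As the deposited file listing shows, lists of peaks with background were made by the authors from each replicate's alignment and from both, each with a control alignment, and so was a list thresholded by the irreproducible discovery rate. Signal values are those the authors deposited and order regions within a single list only. The deposited -log10 q values entered no choice or comparison and are given only as a range. The aligner and the peak caller were not given in the sources used here. Read depth is unknown, so exact Clopper-Pearson 95% intervals cover counting error over regions only, and no test was made: the regions were chosen by signal and there is 1 group. Whether the replicates came from separate cultures is not stated beyond the label of biological replicate.

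The members, gene lists, motifs and comparisons were chosen with earlier results of these data known. Genes came from Ensembl release 115 on WBcel235, the assembly of ce11, and sequences from RefSeq. No listed region reached past a chromosome end. A gene was assigned where its start was the nearest protein-coding start to the summit and within 1 kb, and noncoding genes were counted within 200 bp. Thresholded candidates are the 156 nuclear candidates that overlap the 134 nuclear peaks of the thresholded list of 159. Named genes are those of the 15 highest regions, the 10 with the best lower rank, up to 3 per list with at least 2 genes and per noncoding class, the 3 widest rank gaps and the 3 regions just inside the limit. Python 3.11.15, numpy 2.4.6, pandas 2.3.3, scipy 1.17.1 and matplotlib 3.10.9 were used. The membership rule, gene assignment and motif search were tested on simulated data. Alternatives were other numbers of highest regions, other overlaps, distances and windows, each replicate alone, 1 region per place and the ce10 lists.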

Additional observations from a re-analysis of the deposited data

How the results depend on the processing

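Across 9 results and their alternatives, 58 of 95 values stayed within 1.5 times the count or within the interval of the share, and 37 moved. With the 1000 highest regions of each replicate, 78 regions at 65 places and 39 assigned genes were left, 56.4% were within 1 kb of a start, 6.41% were on chromosome X, 33.3% held GAGAGA and 0 ribosomal protein genes were assigned. With the 2000 highest there were 232 regions, 197 places and 103 genes, and 64.2% were intergenic. With the 5000 highest there were 816 regions, 711 places and 340 genes, and 19.4% held GAGAGA. Fewer or more regions enter by construction. Without replicate 1 or without replicate 2, which drops the requirement of sharing, regions numbered 2750 to 2943, places 2513 to 2669, genes 981 to 1049, and ribosomal protein genes 5 to 7. In the same settings, 39.4% to 39.9% were near a start, 53.2% to 54.4% intergenic, 18.2% to 19.02% on X and 12.6% to 13.96% held GAGAGA, and regions near snRNA or tRNA genes numbered 17 in each.

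With a gene start within 500 bp or 2 kb, 37.7% or 62.5% were near one. With every start counted, 7 of 216 genes were ribosomal protein genes. In windows of 100 or 400 bp, 14.7% or 35.9% held GAGAGA. Regions near snRNA or tRNA genes numbered 3 when replicate regions had to overlap by at least 0.5 of both lengths, and 3 when both replicate summits had to lie within 165 bp, an alternative chosen after seeing the data. The ce10 lists gave 397 regions at 348 places. The cause of the changes was not tested. No paired analysis was possible because there is 1 group. Read depth is unknown, which limits what the ranks of weak regions can show.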
